A study of Mus musculus with 18 samples.

Results

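The complement system and the phagocytic machinery of microglia, the resident macrophages of the brain, were followed in mouse hippocampus through 10 genes out of the 55385 in the deposited count tables. The genes were chosen by symbol. 5 belong to complement (C1qa, C1qb, C1qc, C3 and C4b), and 5 to the phagocytic and disease-type programme (Trem2, Tyrobp, Cd68, Lpl and Spp1). Each symbol had 1 row in the tables. Hippocampus came from C57BL/6 mice that were wild type (WT) or carried a conditional knockout (cKO) of Arid1a, a DNA-binding subunit of the BAF chromatin remodelling complex. RNA was sequenced at postnatal day 21 (P21) from 2 WT and 2 cKO samples and at embryonic day 16.5 (E16.5) from 3 WT and 3 cKO samples, stated to be biological replicates. ChIP-seq for H3K4me3, H3K27ac and H3K27me3 was done at 3 weeks with 1 library per mark and genotype. The labels do not say which Cre was used or in which cells Arid1a was deleted.

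C1q is the recognition molecule of the classical complement pathway and is built from the chains encoded by C1qa, C1qb and C1qc. Once bound, it leads to cleavage of C4 and C3, whose fragments tag material, including synapses in the developing brain, for uptake through complement receptors on microglia. Trem2 is a lipid-sensing receptor that signals through the adaptor Tyrobp, and Cd68 is a lysosomal membrane protein of phagocytes. Lpl, lipoprotein lipase, and Spp1, osteopontin, are among the genes that rise in disease-associated microglia, although neurons also make Lpl and several other cell types make Spp1.

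Total estimated counts per library ran from 20089631 to 20332148 at P21, and from 17662335 to 19760764 at E16.5. Levels are CPM, that is counts scaled to a common library size, after TMM scaling. Changes are log2 values of cKO over WT, and a gene was called when the Benjamini-Hochberg adjusted p of edgeR's quasi-likelihood test over all tested genes was under 0.05. Arid1a, the targeted gene, was read at 4291 and 4089 counts in the WT and at 2281 and 1778 in the cKO libraries of P21. The E16.5 libraries gave 4983, 5489 and 5560 (WT) and 3210, 3100 and 3527 (cKO), so the groups did not overlap at either age. WT replicate 1 at E16.5 stood apart: the summed level of 8 markers of meningeal fibroblasts was 2473 CPM there and 367 and 433 CPM in the other WT libraries. Several results at E16.5 are therefore also given without it. Choroid plexus and ependyma markers varied within genotypes, from 41.2 to 4870 CPM in WT and from 8.58 to 2515 CPM in cKO at E16.5. At P21 they summed to 3620 CPM in cKO replicate 1 and to 1045 to 1419 CPM in the other libraries. In these bulk samples, fewer cells of a type and less RNA per cell cannot be told apart.

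The C1q chains did not differ detectably between genotypes at P21, while microglial identity genes were lower in the same libraries. C1qa stood at 29.6 and 22.8 CPM in the WT and 26.3 and 29.9 CPM in the cKO libraries. C1qb stood at 27.2 and 22.3 CPM in WT and 22.2 and 27.9 CPM in cKO. C1qc stood at 27.7 and 20.4 CPM in WT and 22.6 and 25.8 CPM in cKO. The genotypes overlapped for each chain. The log2 changes were 0.10 for C1qa (approximate 95% interval -0.26 to 0.46), 0.02 for C1qb (-0.36 to 0.39) and 0.01 for C1qc (-0.38 to 0.40), with edgeR adjusted p of 0.730, 0.960 and 0.981. The sign of these small changes depended on single libraries and settings. A change as large as 2-fold lies outside each interval of this fit of the P21 libraries. With all 10 libraries in 1 fit the SEs were wider, at 0.43 for C1qa, 0.35 for C1qb and 0.41 for C1qc. No interval was worked out for that fit, so the statement is limited to the P21 fit.

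The 3 chains lie side by side on chromosome 4, about 3.1 Mb from Arid1a itself. Sequences of the 250 bases before the annotated start, from RefSeq on GRCm38.p6, are shown for C1qb (chr4:136886201-136886450, minus strand) and C1qc (chr4:136892915-136893164, minus strand) because the chains moved together across libraries. Capitals mark GAGGAA or GAGGAAGT, the core recognised by PU.1, the macrophage transcription factor, on either strand.
C1qb: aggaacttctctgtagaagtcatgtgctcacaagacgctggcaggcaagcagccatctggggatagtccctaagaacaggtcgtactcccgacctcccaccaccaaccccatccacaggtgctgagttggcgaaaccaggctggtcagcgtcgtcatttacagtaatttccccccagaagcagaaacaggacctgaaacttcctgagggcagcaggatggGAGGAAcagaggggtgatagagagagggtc
C1qc: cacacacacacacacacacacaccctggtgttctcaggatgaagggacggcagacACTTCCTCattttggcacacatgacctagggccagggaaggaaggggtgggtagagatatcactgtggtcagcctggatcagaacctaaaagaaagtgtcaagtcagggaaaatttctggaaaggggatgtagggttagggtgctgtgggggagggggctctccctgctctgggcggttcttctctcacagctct
GAGGAAGT contains GAGGAA, so a longer match is also a shorter one. The longer core, in its opposite-strand form ACTTCCTC, lies 195 bases before the start of C1qc and is held by 2.44% of 32851 promoter windows of this length. The shorter core, 30 bases before the start of C1qb, is held by 23.25%. These matches are descriptions of letters, not evidence of binding.

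**Figure D1:**
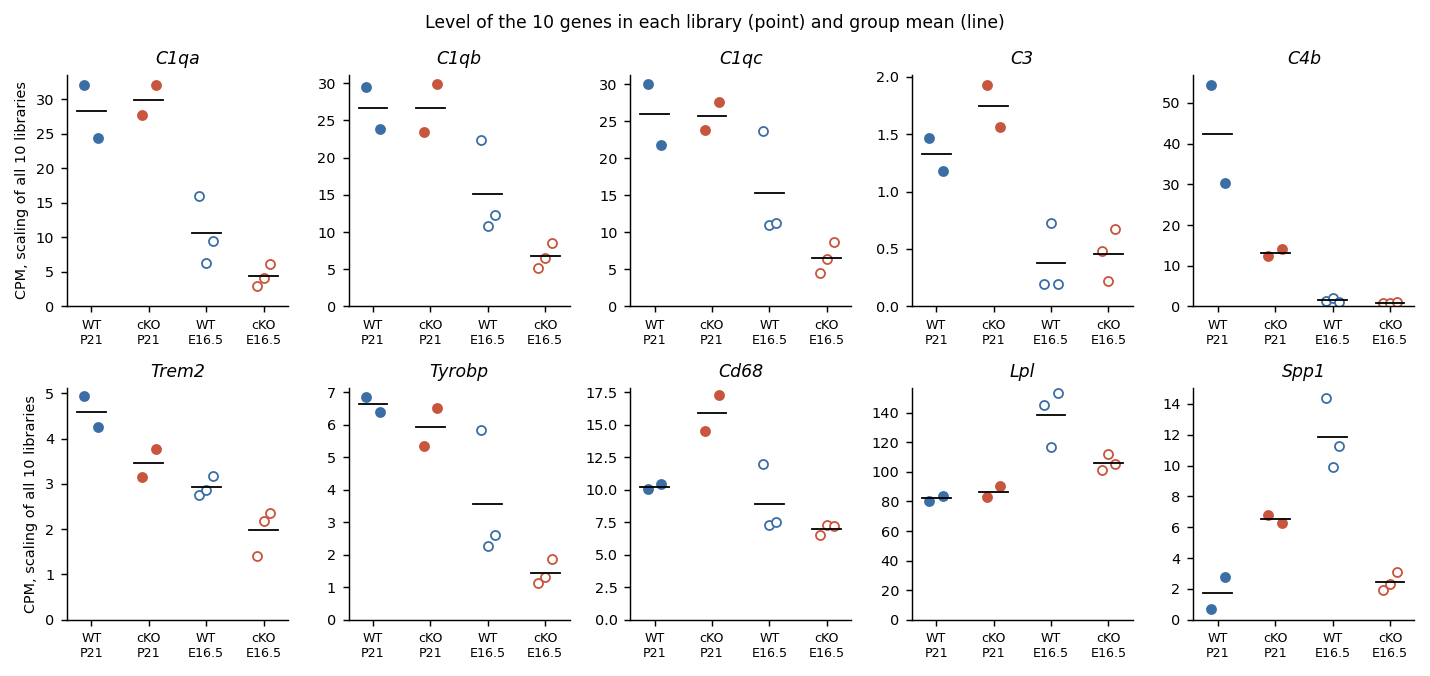
Level of each gene in CPM (linear axis from 0, scaling over all 10 libraries) in each library of the 4 groups. Points are libraries (filled P21, open E16.5, blue WT, red cKO) and lines are group means. The C1q chains overlap between genotypes at P21, C4b is lower in both cKO libraries at P21, and Spp1 is higher in cKO at P21 and lower in cKO at E16.5.

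Downstream in the cascade, C4b was the member called at P21, and it fell. C4b, which encodes complement component C4 and is made in brain largely by astrocytes and oligodendrocytes, had 50.1 and 28.3 CPM in the WT libraries and 11.7 and 13.2 CPM in the cKO libraries. Both cKO values lay below both WT values. The mean went from 39.2 ± 15.4 to 12.4 ± 1.08 CPM (SD, n = 2 each), with a log2 change of -1.66 (SE 0.29) and an edgeR adjusted p of 0.040. It was thus 1 of 10 members called at P21, where 6.72% of all 17407 tested genes were called (2.81% higher, 3.91% lower). The call was lost without cKO replicate 1 (adjusted p = 0.408), without cKO replicate 2 (0.369) and without a filter on low counts (0.112). The change lay between -2.02 and -1.19 over all 12 alternatives.

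The WT libraries differed in C4b. The library with 1000 C4b counts had 37 counts of Xist, the RNA of the inactive X chromosome, and the one with 564 had 4914. In cKO, 242 C4b counts went with 21 Xist counts and 263 with 3572. At P21 Xist thus parted the libraries by replicate number. With a block for replicate number, the log2 change of C4b was -1.60 (edgeR adjusted p = 0.0184). Whether sex itself had a part in the result was not tested. Glial marker sums were also lower in both cKO libraries. The WT library with more C4b had the smaller oligodendrocyte sum and the larger astrocyte sum. The 10 oligodendrocyte genes summed to 7230 and 7789 CPM in WT and to 4640 and 4291 CPM in cKO. Of them, 8 of 10 were called lower and none was at 0. The 9 astrocyte genes summed to 4270 and 4243 CPM in WT and 3703 and 3590 CPM in cKO, with 2 called lower, 1 higher and none at 0. Their part in the result was not tested. C4a is a near-identical neighbour of C4b, so reads may have been split between them. C4a was read at 110 and 70 counts in the WT libraries and at 64 and 73 in the cKO libraries, so the groups overlapped.

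C3, the central component on which the complement pathways converge, was scarce. The WT libraries of P21 held 27 and 22 counts of it and the cKO libraries 38 and 29, a log2 change of 0.42 (interval -0.40 to 1.24, edgeR adjusted p = 0.509). The WT libraries of E16.5 held 4, 15 and 4 counts and the cKO libraries 9, 4 and 14. These overlapped, and the gene did not pass the count filter for testing. No difference in C3 was detectable at this depth.

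The Trem2 receptor pair also showed no call at P21. Trem2 had 4.56 and 3.96 CPM in WT and 2.99 and 3.51 CPM in cKO, a log2 change of -0.39 (interval -0.96 to 0.18, edgeR adjusted p = 0.371). The groups did not overlap, as was the case for 56.1% of all tested genes with 2 libraries a group. Tyrobp had 6.31 and 5.97 CPM in WT and 5.06 and 6.07 CPM in cKO, and the groups overlapped. Its log2 change was -0.14 (interval -0.62 to 0.34, edgeR adjusted p = 0.721).

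Cd68 and Spp1 had higher values in both cKO libraries at P21 without passing the threshold, and Lpl differed little. Cd68 had 9.27 and 9.73 CPM in WT and 13.8 and 16.1 CPM in cKO, with a log2 change of 0.66 (SE 0.16) and an edgeR adjusted p of 0.0521. It was called in 4 of 12 alternatives, and over the 12 its adjusted p ranged from 0.0110 to 0.236. Spp1 had 0.651 and 2.56 CPM in WT and 6.46 and 5.87 CPM in cKO, with a log2 change of 1.94 (SE 0.57) and an edgeR adjusted p of 0.114. The WT libraries differed from each other, at 13 and 51 counts against 134 and 117 in cKO. DESeq2 called Spp1 higher (adjusted p = 0.0135), beside 2.86% of all genes called higher by it, as did edgeR without WT replicate 2 (log2 change 3.22, adjusted p = 0.00263). Lpl had 74.0 and 78.3 CPM in WT and 78.5 and 84.4 CPM in cKO, a log2 change of 0.10 (interval -0.14 to 0.34, edgeR adjusted p = 0.611).

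The windows before the starts of Spp1 (first annotated start, chr5:104434861-104435110, plus strand) and Cd68 (chr11:69666171-69666420, minus strand) are shown because these were the members with the largest log2 changes above 0 at P21. Capitals mark GAGGAA or GAGGAAGT and, in Cd68, TGACTCA, the AP-1 site, in its opposite-strand form TGAGTCA.
Spp1: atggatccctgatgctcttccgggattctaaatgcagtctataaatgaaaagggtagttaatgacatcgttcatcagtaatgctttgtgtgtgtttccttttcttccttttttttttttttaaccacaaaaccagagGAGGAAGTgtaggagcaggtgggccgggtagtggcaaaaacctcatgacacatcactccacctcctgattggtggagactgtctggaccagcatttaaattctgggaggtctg
Cd68: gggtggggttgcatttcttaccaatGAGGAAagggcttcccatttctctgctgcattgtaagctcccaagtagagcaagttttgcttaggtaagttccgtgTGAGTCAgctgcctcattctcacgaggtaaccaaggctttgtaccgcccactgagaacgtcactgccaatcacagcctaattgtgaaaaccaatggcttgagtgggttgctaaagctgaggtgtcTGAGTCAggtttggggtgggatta
Spp1 holds the longer PU.1 core 113 bases before its start. Cd68 holds the shorter core at 225 bases and AP-1 letters at 149 and 24 bases before its start. AP-1 letters were present in 4.46% of windows. The E-box letters CACGTG, recognised by the lysosomal regulator TFEB and relatives, were in 6.02% of windows. They were in none of the windows of C1qb, C1qc, C3, Trem2, Cd68 and Spp1. No window was available for C1qa, C4b, Tyrobp or Lpl, so nothing is said of their letters. Trem2 held the shorter PU.1 core 40 bases before its start. C3 and the second annotated start of Spp1 held none of the letters searched.

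At E16.5 the picture was different: 9 of 9 tested members had lower values in every cKO library than in any WT library, against 15.3% of all tested genes. With the scaling over all 10 libraries Cd68 overlapped, at 7.30 CPM in cKO replicate 2 and 7.27 CPM in WT replicate 2. Among the 9, 1, Spp1, was called by edgeR, which called 0.124% of 16958 genes (0.112% lower). The median log2 change of the members was -1.19, beside -0.01 over all genes. DESeq2 called 5 of 9 lower, beside 4.50% of all genes. At P21 the members' median was 0.06, beside 0.01 over all genes, with 7 above and 3 below 0.

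Spp1 had 15.1, 10.5 and 11.8 CPM in WT and 2.02, 2.43 and 3.25 CPM in cKO at E16.5. The mean fell from 12.5 ± 2.39 to 2.57 ± 0.625 CPM (SD, n = 3 each), with a log2 change of -2.28 (SE 0.24) and an edgeR adjusted p of 0.0472. Each of the 6 fits that left out a library lost the call, as did upper-quartile scaling (adjusted p = 0.0561) and a block for replicate number (adjusted p = 0.383). The change stayed between -2.48 and -2.11 over all 14 alternatives. DESeq2 gave an adjusted p of 2.43e-12.

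The C1q chains were lower together at E16.5 by 2.28- to 2.43-fold in the fitted values, with no edgeR call. C1qa had 16.9, 6.68 and 9.85 CPM in WT and 3.03, 4.30 and 6.40 CPM in cKO. C1qb had 23.6, 11.5 and 12.9 CPM in WT and 5.33, 6.79 and 8.85 CPM in cKO. C1qc had 24.9, 11.7 and 11.7 CPM in WT and 4.77, 6.62 and 9.09 CPM in cKO. WT replicate 1 was the highest of the 6 libraries for each chain. The log2 changes were -1.28 for C1qa (SE 0.42), -1.19 for C1qb (SE 0.33) and -1.24 for C1qc (SE 0.39), with edgeR adjusted p of 0.196, 0.167 and 0.188. DESeq2 called all 3 lower, with adjusted p of 0.0447, 0.0165 and 0.0282. Without WT replicate 1 the changes were -0.84, -0.79 and -0.77, with edgeR adjusted p of 0.395, 0.324 and 0.357.

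The phagocytic members at E16.5 were mostly smaller in change. Tyrobp had 6.15, 2.41 and 2.72 CPM in WT and 1.18, 1.36 and 1.95 CPM in cKO, with a log2 change of -1.32 (SE 0.44) and an edgeR adjusted p of 0.196. The change was -0.77 without WT replicate 1. Trem2 had 2.89, 3.03 and 3.33 CPM in WT and 1.46, 2.26 and 2.45 CPM in cKO, with a log2 change of -0.58 (SE 0.26) and an edgeR adjusted p of 0.269. Cd68 had 12.7, 7.70 and 7.90 CPM in WT and 6.79, 7.58 and 7.50 CPM in cKO. Its log2 change of -0.37 (edgeR adjusted p = 0.382) was -0.09 without WT replicate 1. Lpl had 153, 124 and 161 CPM in WT and 106, 116 and 109.8 CPM in cKO, a log2 change of -0.40 (SE 0.11), with an adjusted p of 0.161 by edgeR and 0.0434 by DESeq2. C4b was low at this age, at 24 to 40 counts in WT and 15 to 22 in cKO, with a log2 change of -0.72 (interval -1.45 to 0.01, edgeR adjusted p = 0.247). Without WT replicate 1 the changes were -0.62 for Trem2, -0.36 for Lpl and -0.77 for C4b.

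**Figure D2:**
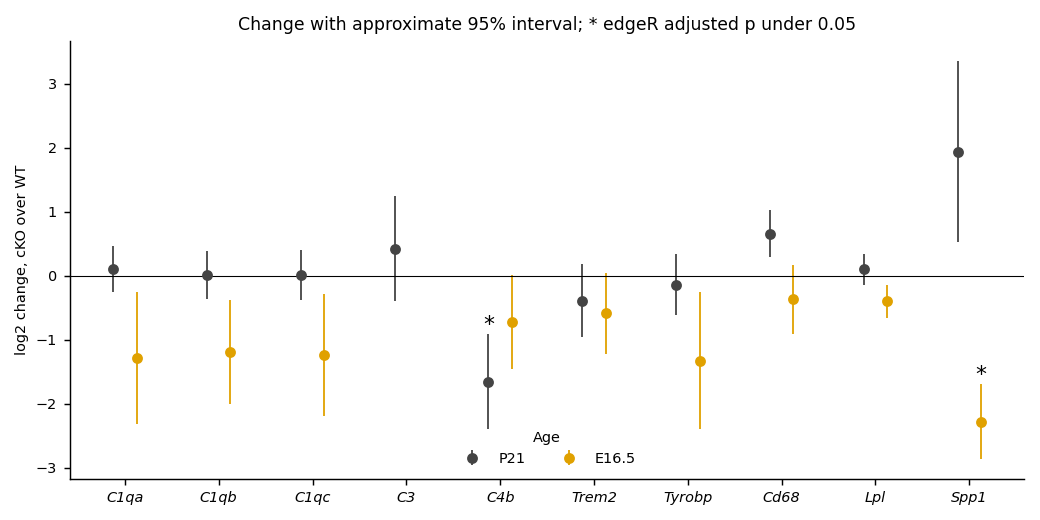
Log2 change of cKO over WT for each gene at P21 (grey) and E16.5 (yellow), with approximate 95% intervals from the edgeR fit of each age. Stars mark an edgeR adjusted p under 0.05: C4b at P21 (-1.66) and Spp1 at E16.5 (-2.28). C3 was not tested at E16.5.

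Other cell types moved with the E16.5 values. The 8 meningeal fibroblast markers summed to 367 to 2473 CPM in WT and 61.7 to 225 CPM in cKO. All 8 were lower in the fitted values, 0 were called by edgeR and 6 lower by DESeq2, and none was at 0. The 8 markers of border macrophages, which sit in the meninges and around vessels and also make C1q, summed to 172, 20.7 and 26.6 CPM in WT and to 8.30, 12.2 and 14.4 CPM in cKO. Of the 4 border macrophage genes tested, 4 were lower and 0 called by edgeR, and none of the list was at 0. DESeq2 called 3 genes of the list lower. Homeostatic microglia genes summed to 199, 130 and 128 CPM in WT and 71.3, 94.6 and 105 CPM in cKO, with 11 of 13 below 0 and 0 called by edgeR (5 by DESeq2). The 9 astrocyte markers summed to 1006, 823 and 798 CPM in WT and 294, 494 and 567 CPM in cKO. Of 8 tested, 8 were below 0, with a median of -1.15, and Aldoc was called lower by edgeR (adjusted p = 0.0376; 3 genes by DESeq2). The 8 endothelial and mural markers summed to 205 to 462 CPM in WT and 150 to 175 CPM in cKO, with 8 of 8 below 0, 0 called by edgeR and 3 by DESeq2. None of these lists had a gene at 0. The part of these cells in the result was not tested. Without WT replicate 1, the members' median log2 change was -0.77 and all 10 members, then tested, were below 0. The median of the meningeal list went from -3.73 to -2.37 without it, and that of the border macrophage list from -3.885 to -1.76. The medians went from -1.03 to -0.77 for homeostatic microglia and from -1.15 to -0.85 for astrocytes. That of the endothelial and mural list went from -0.873 to -0.435.

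**Figure D3:**
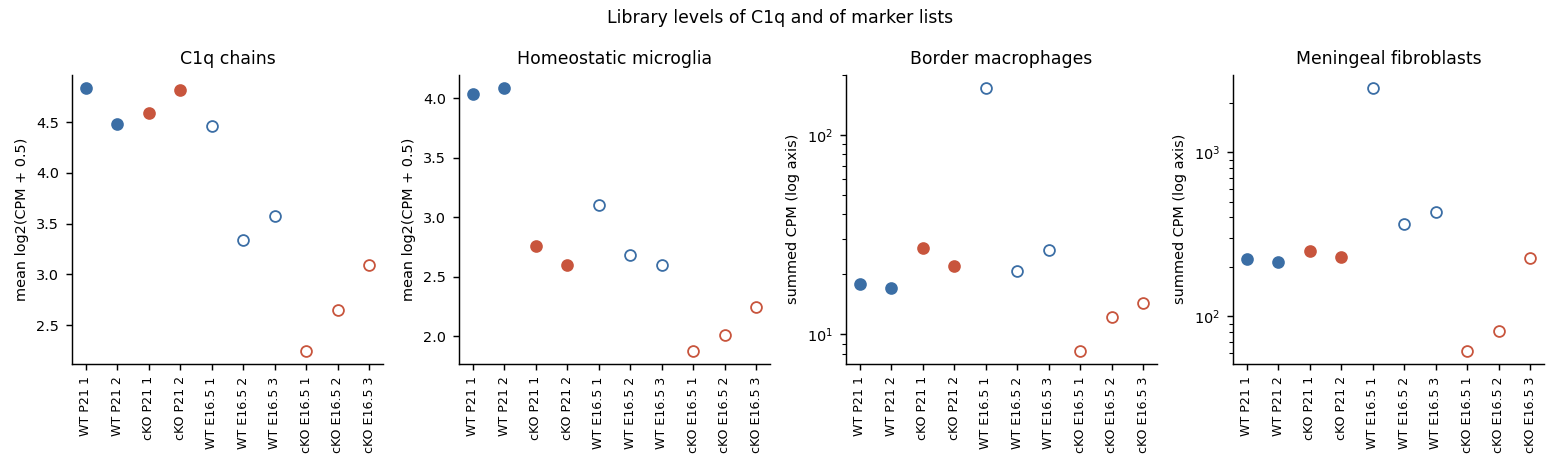
Per library, the mean log2(CPM + 0.5) of the 3 C1q chains and of 13 homeostatic microglia genes, and the summed CPM (log axis) of border macrophage and meningeal fibroblast markers. Filled points are P21, open points E16.5, blue WT and red cKO. At P21 homeostatic genes are lower in cKO while C1q overlaps, and WT replicate 1 at E16.5 is the highest library for both border lists.

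Set against homeostatic genes, C1q parted from them at P21. In mean log2(CPM + 0.5), the C1q chains exceeded the 13 homeostatic genes by 0.80 and 0.39 in the WT libraries and by 1.83 and 2.22 in the cKO libraries. The excess at E16.5 was 1.36, 0.66 and 0.97 in the WT libraries and 0.38, 0.64 and 0.84 in the cKO libraries. The values did not overlap at P21 and overlapped at E16.5. Of the 13 homeostatic genes at P21, 12 fell and 0 rose, with a median log2 change of -1.49. They included Olfml3 (-2.08, SE 0.17), P2ry12, a purine receptor of microglial processes (-2.27, SE 0.19), and Selplg (-1.74, SE 0.19), with edgeR adjusted p from 0.00175 to 0.00371. With 1 library left out, 9 to 12 were called. Border macrophage markers went the other way at P21: the 8 genes summed to 17.8 and 17.2 CPM in WT and 27.1 and 22.0 CPM in cKO, with none at 0. Of 6 tested, 5 were above 0 and 0 were called by either tool (1 higher at an unadjusted p under 0.05), with Stab1 closest (0.63, edgeR adjusted p = 0.0595). Their part in the C1q levels was not tested. Of 10 pan-microglia or macrophage genes, 0 were called by edgeR (4 lower at an unadjusted p under 0.05, 2 by DESeq2) and the median was -0.53.

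The rest of the complement system at P21 was split. Of 5 tested complement receptor genes, Itgam, the alpha chain of complement receptor CR3, fell from 19.2 ± 0.621 to 2.94 ± 0.683 CPM (SD, n = 2 each), a log2 change of -2.71 (edgeR adjusted p = 0.00112). C3ar1, the receptor for the C3a fragment, rose from 1.78 ± 0.179 to 5.28 ± 0.165 CPM (log2 change 1.57, edgeR adjusted p = 0.0145). Cfp, properdin, which stabilises the alternative pathway convertase, fell by 0.88 on the log2 scale, and its change differed between ages (-1.01, edgeR adjusted p = 0.0337). Itgam and C3ar1 were called in each of the 4 fits without 1 library and Cfp in 2 of 4. Hc, complement C5, was read at 0.150 CPM in WT and 0.787 CPM in cKO (log2 change 2.34, SE 0.55, edgeR adjusted p = 0.0462). It was called in 0 of the 4 fits without 1 library (adjusted p 0.107 to 0.268) and had no adjusted p from DESeq2. Among 18 regulators, Csmd2 fell by 0.66, a call kept in 2 of 4 fits without 1 library, and 0 rose. Of 9 initiation genes, 0 were called by edgeR or DESeq2 (unadjusted, 1 lay under 0.05 on each side). Colec12, a scavenger receptor of the collectin family, came closest (0.71, adjusted p = 0.0525).

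Disease-type and phagocytic genes at P21 went both ways. Of 20 tested disease-associated microglia genes beyond the members, 3 rose: Timp2 (0.85), Gpnmb, a lysosomal glycoprotein (2.48), and Apoe, the main brain lipid carrier (0.65). Csf1 fell by 0.68. The list's median was 0.08. With 1 library left out, 1 to 4 genes of the list were called higher (1 without WT replicate 2, 2 without WT replicate 1) and 0 to 2 lower, with Csf1 not called without either WT library. Gpnmb was called in each of the 4 fits, Timp2 in 3 and Apoe in 2. Of 20 phagocytic receptors and bridging molecules, Pros1 (0.97), Fcgr3 (0.90) and Cd14 (1.35) rose and Mfge8, a bridging protein made largely by astrocytes, fell by 0.91. With 1 library left out, 0 to 5 genes of this list were called higher. The 16 lysosomal genes had a median of -0.05 and the 5 genes of Trem2 signalling held 0 calls by either tool (1 lower at an unadjusted p under 0.05). Among 11 partners of lipoprotein lipase, Angptl4, an inhibitor of the enzyme, rose from 1.93 ± 0.601 to 10.1 ± 0.168 CPM (log2 change 2.39, edgeR adjusted p = 0.00384). Among 9 relatives and receptors of osteopontin, Dmp1 fell by 2.66.

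At E16.5 none of the pathway lists held an edgeR call. The medians were -1.0 for 5 Trem2 signalling genes, -0.94 for 17 disease-associated genes, -1.08 for 16 phagocytic genes, -0.47 for 16 lysosomal genes and -0.96 for 4 complement receptors, beside -0.01 over all genes. At an unadjusted p under 0.05, 4, 11, 12, 12 and 2 of them were lower, beside 11.5% of all genes. DESeq2 called 0, 5, 5, 3 and 0 lower. Without WT replicate 1 the medians were, in the same order, -0.63, -0.53, -0.54, -0.29 and -0.93. The 5 initiation genes had no stable direction: their median was 0.19, and 0.27 without WT replicate 1, but it lay between -0.58 and -0.09 in the other 5 fits without 1 library, in which 6 to 8 of the genes were tested. Masp1, a lectin pathway protease, had a change of 0.71 (edgeR adjusted p = 0.132).

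**Figure D4:**
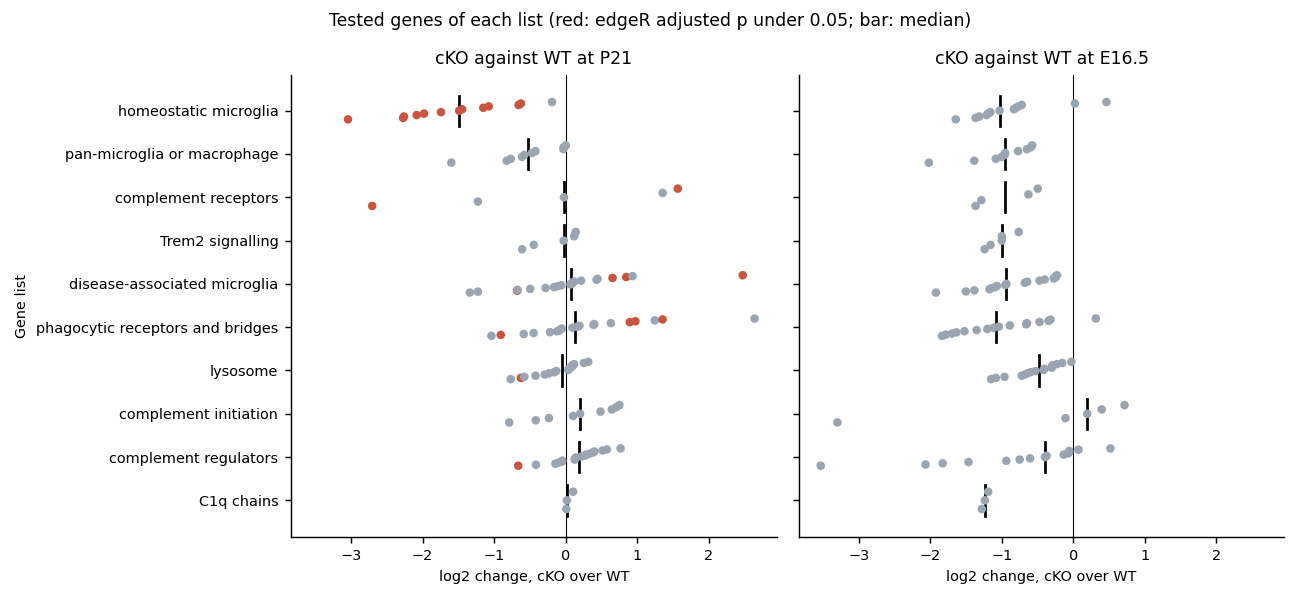
Log2 change of cKO over WT for the tested genes of 9 lists and of the 3 C1q chains at P21 and E16.5. Points are genes, red for an edgeR adjusted p under 0.05, and bars are medians. Homeostatic genes lie at a median of -1.49 at P21, where the C1q chains lie near 0, and most lists lie below 0 at E16.5.

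The difference of the cKO change between ages (P21 minus E16.5, in 1 fit of the 10 libraries) was called for Spp1 alone among the 10 members, beside 1.16% of 18979 genes (0.427% higher). It was 4.18 on the log2 scale (SE 0.65, edgeR adjusted p = 0.0305), and it kept its sign in all 17 alternatives and its call in 9. The other disease-type and complement members were not called: 0.99 for Cd68 (interval 0.28 to 1.70), 1.34 for C1qa (0.05 to 2.64), 1.17 for C1qb (0.12 to 2.22), 1.21 for C1qc (-0.02 to 2.43) and -0.98 for C4b (-1.92 to -0.04), with edgeR adjusted p from 0.140 to 0.253. Tyrobp (1.14), Lpl (0.46), Trem2 (0.15) and C3 (0.10) had adjusted p from 0.174 to 0.967. Differences among the listed genes were called for Timp2 (1.45), Ctsl (1.34), Pros1 (1.98) and Angptl4 (4.45), among others, on the higher side. Each was called in 1 to 4 of the 10 fits without 1 library, and the difference of Cfp in 2.

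**Figure D5:**
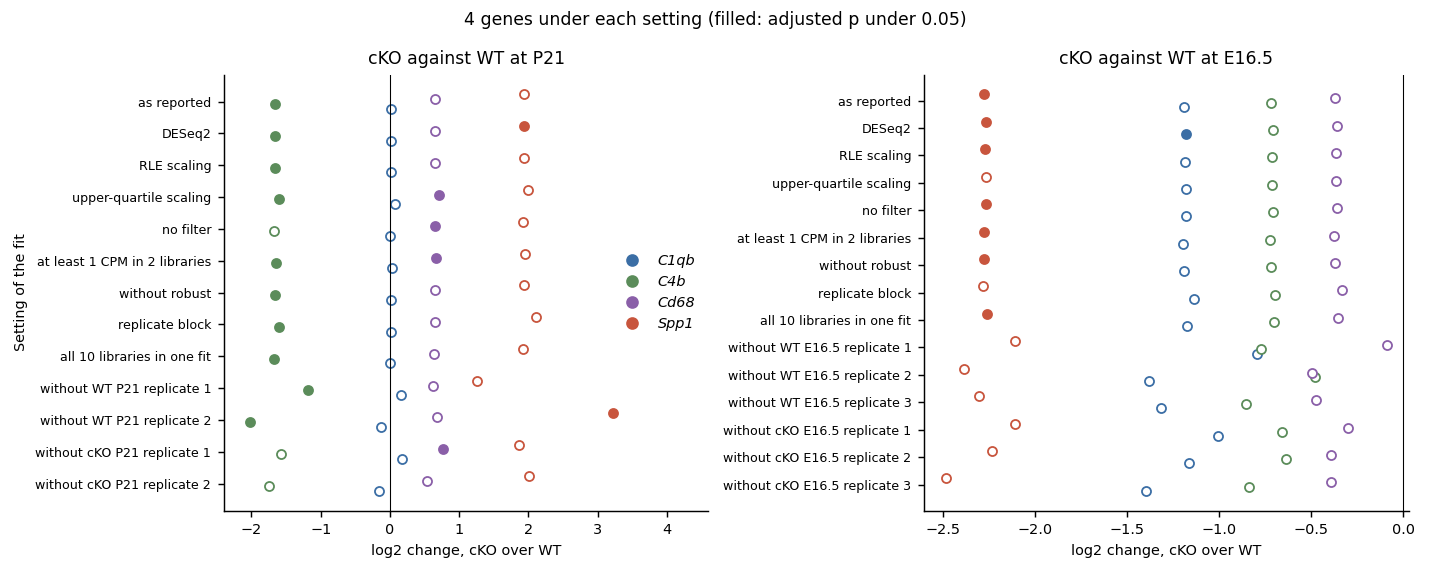
Log2 change of C1qb, C4b, Cd68 and Spp1 under each setting of the fit at P21 and E16.5. Filled points have an adjusted p under 0.05. C4b stays between -2.02 and -1.19 at P21, Spp1 lies above 0 at P21 in every setting and between -2.48 and -2.11 at E16.5.

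In WT alone, 5 of the 10 members were called between ages, where 60.4% of genes were called (27.8% higher at P21, 32.6% lower). C4b was higher at P21 (log2 change 4.82, edgeR adjusted p = 1.57e-06), as were C1qa (1.42, adjusted p = 0.0123) and C3 (1.80, adjusted p = 0.0290). Lpl (-0.75, adjusted p = 0.000469) and Spp1 (-2.78, adjusted p = 0.00113) were lower at P21. C1qb (0.82), Trem2 (0.65), Tyrobp (0.89), C1qc (0.76) and Cd68 (0.20) were not called. The median of all genes was -0.12 with TMM and -0.02 with RLE scaling, and RLE scaling called 6 members higher and 2 lower. The ages came in separate tables, so age and table cannot be told apart. Across the 4 groups, C4b ran from WT at P21 through cKO at P21 and WT at E16.5 to cKO at E16.5 with no neighbours overlapping. Spp1 ran from WT at E16.5 through cKO at P21 to cKO at E16.5 and WT at P21, the last pair overlapping. The C1q chains had the P21 groups highest and overlapping, then WT and cKO at E16.5.

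Likeness of pattern was measured as Pearson's r of log2 CPM over the 10 libraries after centring within age, among 12236 genes, with genotype and library shared by all points. The genes most like the mean of the C1q chains were Lmna (0.99), Zyx (0.99), Cavin3 (0.98), Sparc (0.98) and Col6a1 (0.98). For C4b they were Lasp1 (0.97), Phkg1 (0.96), Reep6 (0.96), Pim2 (0.96) and Cers1 (0.95). For Lpl they were Ust (0.95), Ogfrl1 (0.94), Sstr3 (0.93), Slc7a2 (0.92) and Ncoa1 (0.92), and for Spp1 E130311K13Rik (0.95), Gstm5 (0.94), Purb (0.94), Folh1 (0.92) and Pnpla7 (0.92).

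Histone peaks at the members were few. With 1 library per mark and genotype there was no test, and fold enrichments are the authors'. Within 1 kb of the genes, H3K4me3, a mark of active promoters, had peaks at 1 of 10 members in each genotype, beside 63.7% of 21887 protein-coding genes in WT and 65.4% in cKO. That member was Lpl, with its stronger peak at chr8:68880316-68881702 in WT (fold enrichment 6.36) and chr8:68880193-68881756 in cKO (10.3). H3K27ac, found at active enhancers as well as promoters, had peaks at 0 members in WT and 2 in cKO, beside 36.1% and 51.2% of genes. They lay at C1qc (chr4:136892360-136892554, fold enrichment 3.81, summit 437 bases after the start) and near Cd68 (chr11:69662738-69663484, 7.61). The Cd68 peak lay 0.73 kb outside the gene, beyond its far end, with its summit 3243 bases after the start. The nearest WT H3K27ac peak lay 1.57 kb from Cd68. H3K27me3, the Polycomb mark, had peaks at 0 members in WT and 2 in cKO, beside 4.35% and 16.9% of genes. They lay at C1qa (chr4:136895193-136896581, 8.30) and within C3 (chr17:57224278-57224975, 6.31). The C3 summit was 3535 bases after the start. The C1qa peak covered the lower-coordinate end of the gene (chr4:136895916-136898844), and its distance to the start was not available. The cKO lists were longer for H3K27ac (24065 peaks against 13006) and H3K27me3 (15659 against 4124). All coordinates are GRCm38.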

How the data were processed

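The 10 genes, the gene lists and the tests were chosen with earlier results of these data known. Gene-level estimated counts, deposited by the authors as a table for P21 and another for E16.5 (Salmon 1.0.0, GRCm38, per the submitters' processing notes), were rounded to whole numbers. The authors also deposited log2 fold changes, p-values and a baseMean score, from DESeq2 1.26.0 according to those notes. For ChIP-seq they deposited peak lists with a pileup signal, a fold enrichment ratio over input and −log10 p-values and q-values, per the file headers (MACS 2.2.7.1, q limit 0.01; the notes name MACS2 2.2.5 and Bowtie2 2.3.5.1). Whether counting used strand: not given in the sources used here.

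Genes were filtered with filterByExpr, scaled by TMM and tested with edgeR 4.0.16 (R 4.3.3, robust quasi-likelihood, Benjamini-Hochberg threshold 0.05), within each age, with 1 fit of 10 libraries for contrasts across ages. Standard errors and 95% intervals are approximate, from the F statistic. DESeq2 1.42.0, other scalings and filters, a replicate block and leaving out each library were the alternatives. Samples were grouped by their titles. Replicate numbers were not used to pair samples, except in the replicate block. Named genes were the 10 members, Arid1a, up to 3 called genes per list with the lowest adjusted p (otherwise the closest 1), and the 5 most alike genes. Other list genes named (Csf1, Cd14, and those named for the difference between ages), C4a, Xist and the E16.5 library set aside were chosen after their values were seen. Some list genes are not reported here. Peaks counted within 1 kb of a gene. On simulated counts, 2-fold and 4-fold changes were recovered in 58% and 90% at P21 (17407 genes) and 43% and 71% at E16.5 (16958 genes), with 18 false calls of 166 and 13 of 127. For the difference between ages (18979 genes) recovery was 18% and 52%, with 4 false of 74.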

Additional observations from a re-analysis of the deposited data

Results flagged for a closer look

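The change of Spp1 with Arid1a loss differed between ages by the test of the difference itself. Spp1 had 0.651 and 2.56 CPM in WT and 6.46 and 5.87 CPM in cKO at P21, and 15.1, 10.5 and 11.8 CPM in WT against 2.02, 2.43 and 3.25 CPM in cKO at E16.5. The difference was 4.18 on the log2 scale (SE 0.65, edgeR adjusted p = 0.0305), with the 2 cKO libraries above both WT libraries at P21 and the 3 cKO libraries below all WT libraries at E16.5. It lost its call when any of 7 libraries was left out, for example without WT replicate 1 at E16.5 (4.02, adjusted p = 0.0583), and its adjusted p ranged from 5.62e-08 to 0.228 over 17 alternatives.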

How the results depend on the processing

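Of the values of single genes under alternatives, 512 kept direction and side of the threshold, 26 passed only under the alternative, 24 passed only in the reported fit and 14 changed sign. The cause of these shifts was not tested. The sign changes were all in uncalled values: C1qb at P21 with all 10 libraries in 1 fit (-0.0028), C1qc without a filter (-0.0036) and with all 10 libraries (-0.01), C3 for the difference between ages with the replicate block (-0.02), and fits without 1 library, in which C1qa at P21 ranged from -0.08 to 0.30, C1qb from -0.16 to 0.18, C1qc from -0.20 to 0.24, and the differences between ages from -0.80 to 0.49 for C3 and from -0.04 to 0.30 for Trem2.

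Calls over all genes at P21 numbered 1169 and became 2149 without a filter, 505 with all 10 libraries in 1 fit and 431 to 2871 without 1 library (431 without WT replicate 2, 643 without WT replicate 1, 2871 without cKO replicate 1). With upper-quartile scaling the split at P21 was 570 higher and 519 lower, against 489 and 680. At E16.5 21 calls became 1066 with DESeq2, 129 without a filter, 178 with all 10 libraries and 0 to 15 without 1 library (0 without WT replicate 1 or 3). For the difference between ages 221 became 1159 with DESeq2, 358 without a filter and 7 to 612 without 1 library. Members called at P21 went from 1 to 2 with DESeq2, upper-quartile scaling or a 1 CPM filter and to 0 to 2 without 1 library. At E16.5 they went from 1 to 5 with DESeq2, 0 with upper-quartile scaling and 0 without any 1 library. For the difference they went from 1 to 0 to 1 without 1 library. Between ages in WT they went from 5 to 9 with DESeq2, 8 with RLE scaling and 3 to 8 without 1 library.

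Deviations of same-numbered samples were not positively correlated (-0.01 at P21 and -0.25, -0.06 and -0.53 at E16.5). With so few libraries a group, these correlations cannot decide whether the replicate numbers pair samples. Xist split the libraries by replicate number in the same way in both genotypes at each age. At E16.5 the libraries numbered 3 had at most 10 Xist counts, while those numbered 1 or 2 had at least 6491. With the replicate block, calls were 862 at P21, 0 at E16.5 (unadjusted, 719 lay under 0.05 on the higher side and 1231 on the lower) and 1 for the difference, with 0 members called at E16.5 and 0 for the difference. A window of 5 kb gave H3K4me3 peaks at 3 members in WT and 3 in cKO, and H3K27ac peaks at 2 in WT and 4 in cKO. The 2 cKO H3K27ac members became 1 without a window, 1 at a −log10 q of at least 5 and 1 when the larger share of the peak had to lie in the window. Depth limits C3, with 4 to 15 counts at E16.5, most.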
